A study of Mus musculus with 4 samples.

Results

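The genes described here were 8 Toll-like receptors (Tlr1, Tlr2, Tlr3, Tlr4, Tlr7, Tlr8, Tlr9 and Tlr13) and their adaptor Myd88, chosen by name from the 32285 genes of the count matrix. All 9 were measured in B-like, dendritic-like, macrophage-like, monocyte-like and neutrophil-like leukocytes of mouse tumors, in each of 4 libraries.

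Toll-like receptors are membrane proteins with which innate immune cells recognize parts of microbes and of damaged cells. Tlr1, Tlr2 and Tlr4 act at the cell surface, where Tlr2 pairs with Tlr1 or Tlr6 to bind lipoproteins and Tlr4 binds lipopolysaccharide together with Ly96 and Cd14. Tlr3, Tlr7, Tlr8, Tlr9 and Tlr13 act in endosomes and bind nucleic acids. All of them except Tlr3 signal through Myd88, which recruits Irak kinases and leads to NF-kB and, in endosomes, to interferon regulatory factors.

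The libraries were droplet single-cell RNA sequencing libraries of live, CD45-positive sorted cells from KPC tumors, which grow from a mouse pancreatic cancer line and were implanted under the skin of C57BL/6 mice. One group was untreated, one received an agonist of STING (the receptor for cyclic dinucleotides; ADU-S100, an analog of cGAMP, injected into the tumor), one received an agonist of the lymphotoxin-β receptor (LTbR; the antibody 4H8, given systemically), and one received the combination. The study asked whether the drugs induce tertiary lymphoid structures, and the comparison made here is of each treated library with the untreated one and of the combination with each monotherapy. The STING agonist was given once, at the start of treatment, and tumors were taken after the last of several doses of the LTbR agonist. Tumors of a group were pooled before sorting and each group had 1 library here, so there is no spread between replicates and no test, and every interval below is an exact 95% interval of counting error only. The paper states that single-cell sequencing was performed in more than 1 independent experiment, and only these libraries were used here. All mice were young adults.

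The libraries held 3955 to 7824 barcodes and 32529174 to 60770280 UMIs (unique molecular identifiers, each counting 1 captured RNA molecule), and the study's own quality limits kept 23011 of 24839 cells. Median UMIs per kept cell ran from 5750 with the LTbR agonist to 7094 untreated, and 2.68% to 6.78% of barcodes exceeded the mitochondrial limit, the higher values being those of the LTbR agonist and combination libraries. Pairs of libraries shared 29 to 52 cell barcodes, at most 0.956% of the smaller library. Clustering without the 9 genes or their pathway genes gave 26 clusters, and markers allowed a name for 23, where the names are rebuilt from RNA and are not those of the study. In the order untreated, STING agonist, LTbR agonist and combination, which is kept throughout, there were 57, 15, 173 and 530 B-like cells, 797, 255, 549 and 318 dendritic-like cells, 1825, 872, 1644 and 1008 macrophage-like cells, 1091, 534, 1186 and 729 monocyte-like cells, and 223, 301, 376 and 67 neutrophil-like cells. The clusters that made up a class shifted with treatment. Cluster 0, led by C1qb, Arg1 and Trem2, held 80.1%, 75.9%, 47.9% and 37.3% of macrophage-like cells, and cluster 5, led by Retnla, Ccl8 and Mrc1, held 9.81%, 11.7%, 30.2% and 49.1%. Cluster 17, also macrophage-like, was led by the heat shock genes Hspa1b and Hspa1a. Cluster 15, led by Ace and Adgre4, held 6.14%, 4.87%, 18.7% and 30.3% of monocyte-like cells.

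The 9 genes lie on 6 chromosomes of the mouse (build GRCm38, GENCODE annotation). Tlr1 lies at chr5:64924679-64933563, Tlr2 at chr3:83836272-83841767, Tlr3 at chr8:45395665-45411080, Tlr7 at chrX:167304929-167330558, Tlr8 at chrX:167242696-167264329 and Myd88 at chr9:119335934-119341411, all on the minus strand. Tlr4 lies at chr4:66827584-66930284, Tlr9 at chr9:106222598-106226883 and Tlr13 at chrX:106143204-106160493, all on the plus strand. Tlr3 overlaps Gm45542 on the opposite strand, and Myd88 overlaps Slc22a14 on the same strand and Acaa1a on the opposite strand. How reads in these overlaps were assigned was not examined, so they may affect the counts of these 2 members.

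Promoter windows from RefSeq (GRCm38.p6; 250 bases before to 50 after a start) were found for 7 members, and were searched on both strands for 3 motifs. The interferon-stimulated response element, searched as GAAANNGAAA, was in the window of Myd88 and of no other of these members, and in 3.44% of all 32851 windows of the same length. The NF-kB motif, in 8.46% of all windows, was in those of Tlr2 and Tlr3. The PU.1 motif, searched as GAGGAAG and in 13.6% of all windows, was in those of Tlr1, Tlr9 and Tlr13. The 2 windows below are shown because Myd88 is the adaptor shared by the receptors and Tlr2 held the most matches, 5 that overlap at 2 places. Capitals mark the interferon-stimulated response element of Myd88 (chr9:119339969-119340268, minus strand), which begins 40 bases before the start, and the NF-kB matches of Tlr2 (chr3:83841559-83841858, minus strand), which begin 173 and 8 bases before it. A match is a run of letters and not a measured site.
Myd88: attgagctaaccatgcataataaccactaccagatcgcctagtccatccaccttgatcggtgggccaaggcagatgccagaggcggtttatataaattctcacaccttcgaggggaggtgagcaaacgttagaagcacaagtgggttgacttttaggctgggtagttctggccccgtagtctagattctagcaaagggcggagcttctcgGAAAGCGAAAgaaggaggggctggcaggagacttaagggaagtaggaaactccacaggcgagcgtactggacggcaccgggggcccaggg
Tlr2: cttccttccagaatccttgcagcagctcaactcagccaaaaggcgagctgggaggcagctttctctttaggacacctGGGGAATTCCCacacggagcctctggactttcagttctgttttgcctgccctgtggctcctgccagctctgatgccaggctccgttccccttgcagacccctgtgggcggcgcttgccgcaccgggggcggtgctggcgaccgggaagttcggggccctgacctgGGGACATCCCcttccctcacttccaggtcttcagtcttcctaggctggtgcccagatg

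**Figure D1:**
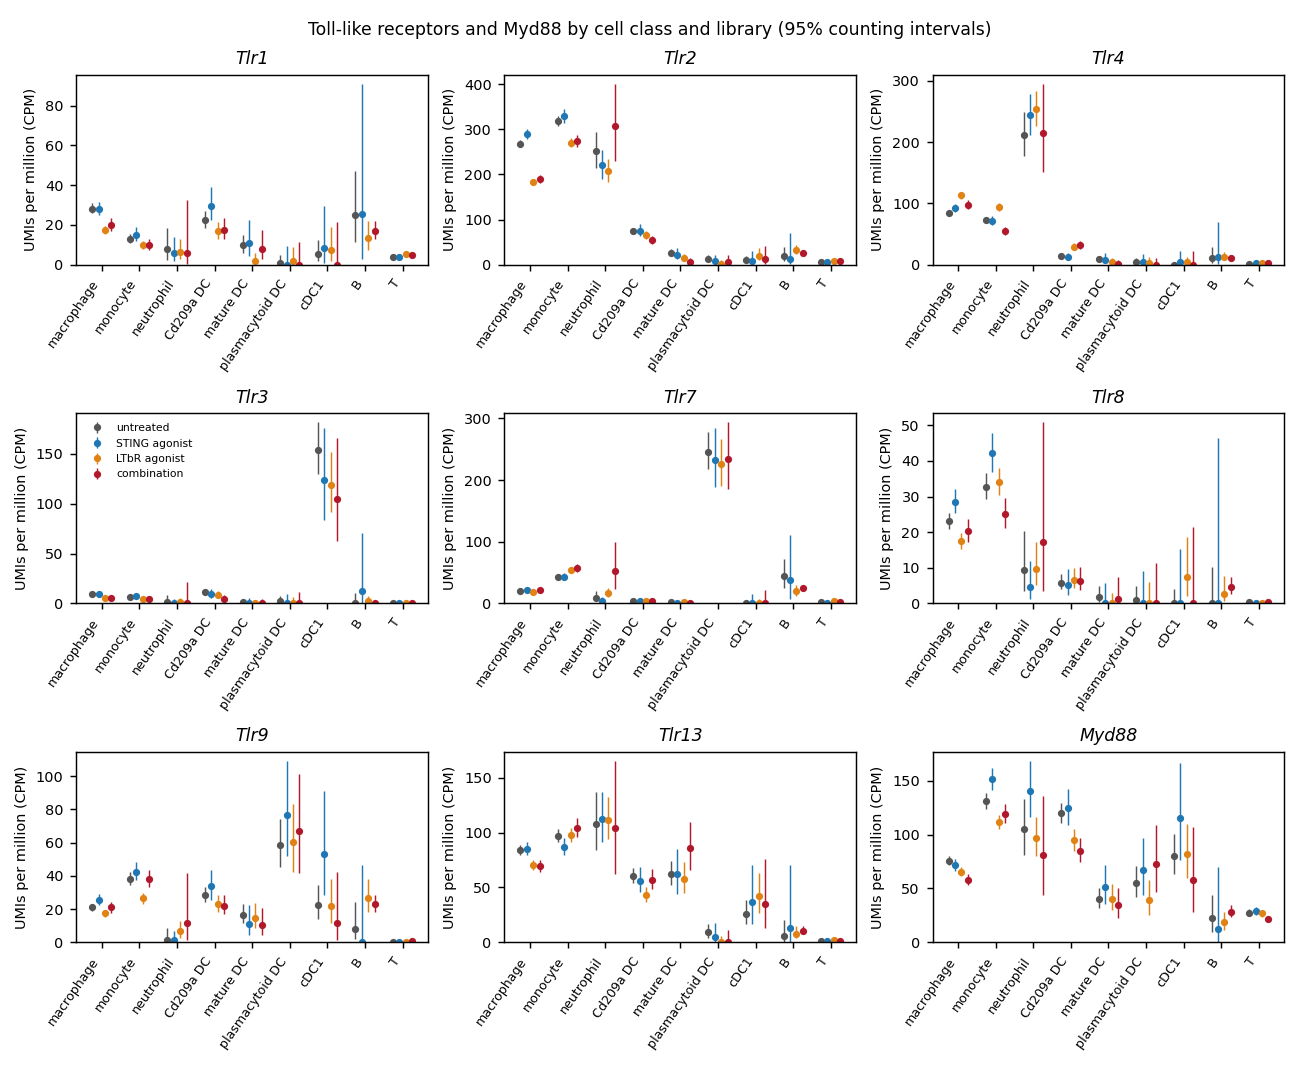
Levels in CPM (y axis, 1 panel per gene) of the 9 genes in each cell class (x axis), with 1 point per library and bars for exact 95% counting intervals. Tlr2 and Tlr4 stand high in macrophage-, monocyte- and neutrophil-like cells, Tlr3 in cDC1-like and Tlr7 in plasmacytoid-dendritic-like cells, and T-like cells stand near 0 for every gene except Tlr1 and Myd88.

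Levels are given as CPM, the UMIs of a gene scaled to the total UMIs of a cell class in a library, and are compared between classes and libraries but not between genes. Tlr2, the lipoprotein receptor, stood at 318, 329, 271 and 274 CPM in monocyte-like cells, the highest of the 5 classes in each library except the combination, where neutrophil-like cells held more. Neutrophil-like cells held 252, 220, 208 and 307 CPM and macrophage-like cells 268, 289, 184 and 190 CPM, so that the ranges of these 3 classes over the libraries overlapped. All dendritic-like cells together held 38.8 to 50.1 CPM, with the Cd209a-dendritic-like subset at 74.5, 75.7, 65.2 and 53.7 CPM. T-like cells, which stand here for cells that should lack the receptor, held 5.05 to 7.64 CPM.

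Macrophage-like cells held less Tlr2 in both libraries that received the LTbR agonist. The ratio to untreated was 0.684 (0.652 to 0.718) with the LTbR agonist, 0.708 (0.668 to 0.750) with the combination and 1.08 (1.03 to 1.13) with the STING agonist. A Tlr2 UMI was found in 72.7%, 73.6%, 57.9% and 52.6% of macrophage-like cells, at medians of 8875, 10985.5, 8224 and 7313 UMIs per cell. After thinning of each cell to 1000 UMIs the shares were 22.1%, 25.7%, 17.4% and 16.0%, which keeps the order between both LTbR-treated libraries and the others. In T-like cells, at medians of 4474 to 5378 UMIs, the unthinned shares were 1.71% to 2.33%. The lower level stood within both large macrophage-like clusters as well. Cluster 0 held 280, 309, 219 and 226 CPM of Tlr2, and cluster 5 held 221, 207, 160 and 163 CPM.

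Among monocyte-like clusters the picture for Tlr2 was uneven. Cluster 13, led by the interferon-induced genes Rsad2 and Ifit2, held 459, 444, 347 and 326 CPM, a ratio of 0.756 (0.681 to 0.839) with the LTbR agonist and 0.710 (0.617 to 0.815) with the combination. Cluster 3, led by Timp1 and Tgm2, held 291, 323, 296 and 331 CPM of Tlr2, and cluster 14, led by Hp and Lyz2 among others, 212, 203, 221 and 219 CPM. In mature-dendritic-like cells Tlr2 stood at 26.3, 21.8, 14.9 and 6.60 CPM, resting on 54, 14, 18 and 5 UMIs.

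Tlr1, a partner of Tlr2, was highest in macrophage-like cells at 28.2, 28.1, 17.4 and 20.1 CPM or in Cd209a-dendritic-like cells at 22.4, 29.7, 16.8 and 17.7 CPM, 2 ranges that overlapped. B-like cells held 24.9, 25.2, 13.3 and 16.8 CPM on 9, 2, 15 and 59 UMIs, a range that overlapped both. Monocyte-like cells held 9.78 to 15.1 CPM, neutrophil-like cells 5.80 to 7.82 CPM on at most 8 UMIs, and T-like cells 3.84 to 5.49 CPM. In macrophage-like cells the ratio was 0.616 (0.527 to 0.718) with the LTbR agonist and 0.713 (0.594 to 0.853) with the combination, against 0.997 (0.856 to 1.16) with the STING agonist. These are the 2 libraries in which its partner Tlr2 was lower as well. Within cluster 5 the Tlr1 ratios were 0.532 (0.368 to 0.774) and 0.494 (0.339 to 0.724), and within cluster 0 they were 0.643 (0.532 to 0.775) and 0.764 (0.600 to 0.963).

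Tlr4, the lipopolysaccharide receptor, was highest in neutrophil-like cells at 211, 244, 254 and 214 CPM, above every other named class in each library. Macrophage-like cells held 84.4, 92.5, 113 and 98.0 CPM and monocyte-like cells 72.9, 71.5, 94.0 and 54.5 CPM, 2 ranges that overlapped. Dendritic-like cells held 10.4, 10.1, 19 and 21.7 CPM. NK-like cells held 7.41 to 11 CPM and T-like cells 1.66 to 2.60 CPM, so the untreated dendritic-like level lay within the counting interval of NK-like cells (6.54 to 14.9 CPM).

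In dendritic-like cells Tlr4 stood at 1.83 times (1.38 to 2.43) the untreated level with the LTbR agonist, 2.09 times (1.54 to 2.83) with the combination and 0.971 times (0.626 to 1.47) with the STING agonist. Set against the STING monotherapy, the combination held 2.15 times as much (1.41 to 3.36). Most of these UMIs lay in the Cd209a-dendritic-like subset, named for its lectin marker, with 72, 23, 104 and 84 UMIs or 14, 12.9, 28.7 and 31.6 CPM. Its share of dendritic-like cells was 53.5%, 54.1%, 55.7% and 64.5%. Macrophage transcripts moved beside this result. C1qa, C1qb, C1qc and Lyz2, all 4 detected in every library, summed to 759, 933, 958 and 2510 CPM in dendritic-like cells, and 24.2%, 21.7%, 22.2% and 45.9% of Cd209a-dendritic-like cells carried a C1q UMI. In the Cd209a-dendritic-like cells without a C1q UMI, Tlr4 stood at 7.85, 8.83, 15.2 and 21.5 CPM, a ratio of 1.94 (1.17 to 3.23) with the LTbR agonist and 2.75 (1.56 to 4.80) with the combination. A Tlr4 UMI was found in 7.28%, 7.84%, 10.4% and 15.1% of dendritic-like cells, at medians of 10098 to 12409 UMIs. After thinning to 1000 UMIs the shares were 0.629%, 1.57%, 0.739% and 2.21%, against 0.567% to 1.85% in NK-like cells, too few for an order to be read.

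Macrophage-like and monocyte-like cells differed in what the combination library held. In macrophage-like cells the Tlr4 ratio was 1.34 (1.25 to 1.44) with the LTbR agonist and 1.16 (1.06 to 1.27) with the combination. The latter, 0.21 on the log2 scale, turned to -0.07 with classes by marker score and to -0.04 at Leiden resolution 2. Cluster 0 alone held 89.0, 99.1, 141 and 136 CPM of Tlr4, ratios of 1.58 (1.46 to 1.71) and 1.53 (1.38 to 1.69), whereas cluster 5, which took a larger share of both LTbR-treated libraries, held 43.4, 40.5, 69.9 and 57.5 CPM. In monocyte-like cells the ratio was 1.29 (1.17 to 1.43) with the LTbR agonist and 0.749 (0.654 to 0.855) with the combination. The combination held 0.580 times (0.509 to 0.660) the Tlr4 of LTbR monotherapy in these cells. Cluster 14 showed the widest contrast, with 34.2, 50.3, 68.0 and 18.3 CPM of Tlr4 on 42, 40, 148 and 19 UMIs. Cluster 3 held 71.0, 65.0, 105 and 64.8 CPM and cluster 13 held 101, 107, 147 and 114 CPM, so that each of these 3 clusters was highest with the LTbR agonist alone. In cluster 15, which took a larger share of the LTbR-treated libraries, Tlr4 stood at 45.1, 23.0, 34.3 and 22.6 CPM.

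A cluster of 435 cells that could not be named, 18, held some macrophage genes such as Mertk and stayed out of the classes. Its 157, 84, 112 and 82 cells held Tlr4 at 214, 261, 291 and 145 CPM and Tlr2 at 224, 323, 117 and 221 CPM.

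**Figure D2:**
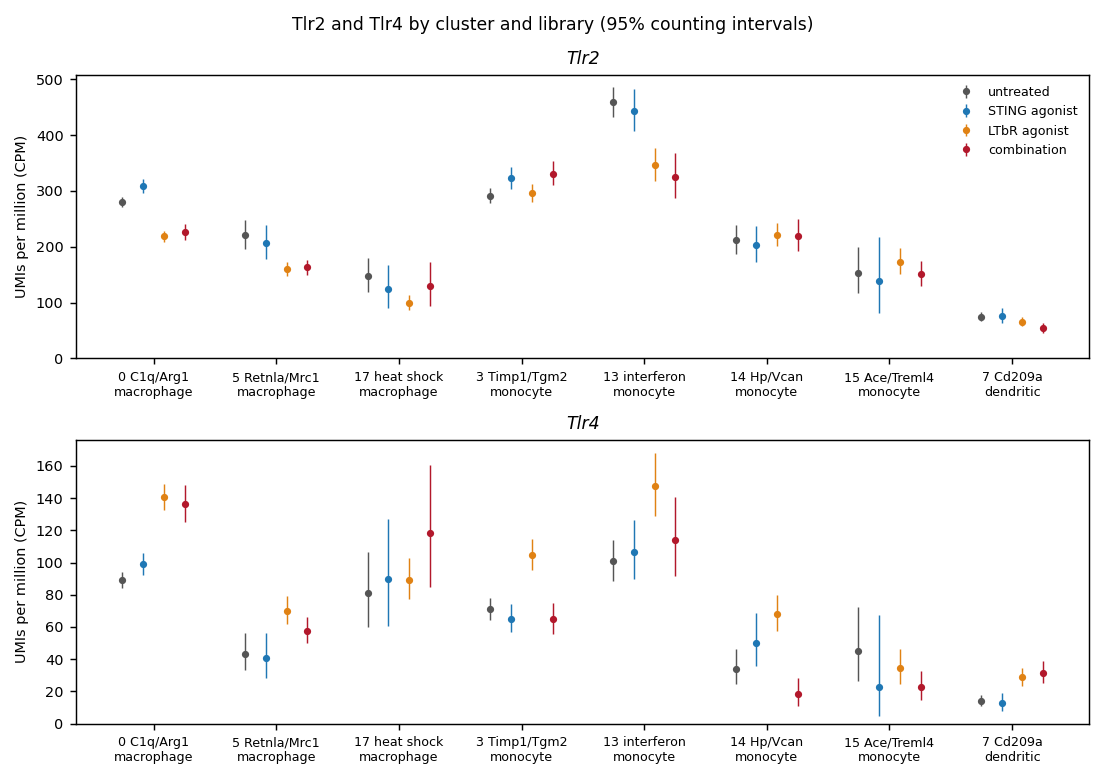
CPM of Tlr2 and Tlr4 (y axis, 1 panel each) in single clusters of macrophage-like, monocyte-like and dendritic-like cells (x axis), with 1 point per library and bars for exact 95% counting intervals. In cluster 0, Tlr2 is lower (219 and 226 against 280 CPM) and Tlr4 higher (141 and 136 against 89.0 CPM) in both LTbR-treated libraries than in the untreated one.

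Tlr3, the receptor for double-stranded RNA, was highest in cDC1-like cells, the cross-presenting dendritic subset marked by Xcr1 and Clec9a, at 154, 123, 119 and 105 CPM. These values rest on 60, 18, 39 and 10 cells, of which 70.0%, 50%, 59.0% and 70.0% carried a UMI, and their counting intervals overlap. No other class came near. Cd209a-dendritic-like cells held 4.88 to 11.1 CPM, macrophage-like cells 5.89 to 9.70 CPM, monocyte-like cells 4.79 to 7.08 CPM, and neutrophil-like cells at most 2 UMIs. T-like cells held 0.266 to 0.622 CPM.

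Over all dendritic-like cells Tlr3 stood at 22.4, 15, 16.0 and 7.91 CPM, a ratio of 0.353 (0.234 to 0.517) with the combination. The make-up of the class moved with it, since cDC1-like cells were 7.53%, 7.06%, 7.1% and 3.14% of dendritic-like cells. Within cDC1-like cells the combination ratio was 0.682 (0.393 to 1.12), an interval that includes 1, and within Cd209a-dendritic-like cells it was 0.441 (0.221 to 0.815) on 13 against 57 UMIs. In macrophage-like cells Tlr3 stood at 9.70, 9.47, 5.94 and 5.89 CPM, ratios of 0.976 (0.748 to 1.27), 0.613 (0.467 to 0.798) and 0.606 (0.430 to 0.841). With classes drawn from marker scores of single cells the last of these moved from -0.72 to -0.11 on the log2 scale and no longer lay past 1.5-fold. Clusters 0 and 5 each held this lower level, with Tlr3 at 9.38, 9.93, 5.62 and 4.93 CPM in cluster 0 and at 17.7, 9.01, 7.43 and 7.33 CPM in cluster 5.

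Tlr7, a receptor for single-stranded RNA, was highest in plasmacytoid-dendritic-like cells, the interferon-producing subset marked by Siglech, at 246, 233, 226 and 235 CPM. A UMI was found in 77.7%, 73.0%, 71.4% and 83.3% of these cells, and the ratios to untreated, 0.945 (0.740 to 1.20), 0.919 (0.744 to 1.13) and 0.953 (0.730 to 1.23), all include 1. Monocyte-like cells held 42.8, 43.4, 54.7 and 56.7 CPM and macrophage-like cells 19.3 to 22.4 CPM. No Tlr7 UMI was found in the cDC1-like cells of any library, which allows up to 3.94 CPM untreated and 21.5 CPM in the 10 cells of the combination. In monocyte-like cells the ratio was 1.28 (1.12 to 1.46) with the LTbR agonist and 1.33 (1.15 to 1.53) with the combination. Cluster 15, with 71.6, 176, 94.7 and 124 CPM of Tlr7 on 27, 23, 116 and 148 UMIs, was a larger share of monocyte-like cells in these 2 libraries, while cluster 3 held 28.2, 36.6, 35.2 and 28.0 CPM. The combination ratio was 1.73 (1.14 to 2.72) in cluster 15, 0.994 (0.752 to 1.30) in cluster 3, 0.604 (0.384 to 0.915) in cluster 13 and 1.05 (0.765 to 1.44) in cluster 14. With each cluster weighted alike in both libraries, by its cells in the 2 together, the log2 ratio over monocyte-like cells moved from 0.41 to 0.14. Over all dendritic-like cells the Tlr7 ratio was 0.699 (0.544 to 0.889) with the combination, where plasmacytoid-dendritic-like cells were 9.43% of the class against 14.1% untreated.

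Tlr8, which also binds single-stranded RNA, was highest in monocyte-like cells at 32.7, 42.1, 34.1 and 25.1 CPM. Macrophage-like cells held 23.1, 28.6, 17.5 and 20.4 CPM, so that the 2 ranges overlapped. Dendritic-like cells held 2.93 to 4.68 CPM, and T- and NK-like cells at most 1.21 CPM. Both myeloid classes held their highest level with the STING agonist, at a ratio of 1.29 (1.08 to 1.53) in monocyte-like and 1.24 (1.06 to 1.45) in macrophage-like cells. The combination did not share it, since monocyte-like cells held 0.597 times (0.482 to 0.737) the Tlr8 of STING monotherapy.

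Tlr9, the receptor for CpG DNA, was highest in plasmacytoid-dendritic-like cells at 58.4, 76.8, 60.2 and 67.1 CPM, with counting intervals that overlap. Monocyte-like cells held 38.0, 42.5, 26.5 and 38.4 CPM, Cd209a-dendritic-like cells 22.2 to 33.6 CPM and macrophage-like cells 17.4 to 25.5 CPM. Each of these ranges overlapped its neighbor, whereas those of monocyte-like and macrophage-like cells did not. The cDC1-like cells held 11.7 to 53.4 CPM on at most 21 UMIs. Neutrophil-like cells held 1, 1, 8 and 2 UMIs of Tlr9. In monocyte-like cells the ratio was 0.697 (0.591 to 0.820) with the LTbR agonist and 1.01 (0.853 to 1.19) with the combination, and in cluster 3 alone it was 0.664 (0.526 to 0.834) and 1.16 (0.927 to 1.44).

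Tlr13, a mouse receptor for bacterial ribosomal RNA, stood at 108, 112, 112 and 104 CPM in neutrophil-like cells and at 97.2, 87.0, 97.9 and 104 CPM in monocyte-like cells, with counting intervals that overlap. Macrophage-like cells held 69.4 to 85.3 CPM. Mature-dendritic-like cells held 62.4, 62.2, 58.0 and 85.8 CPM and Cd209a-dendritic-like cells 60.7, 56.1, 42.8 and 57.1 CPM, overlapping ranges. Plasmacytoid-dendritic-like cells held 10, 2, 0 and 0 UMIs. The ratios in macrophage-like cells were 1.02 (0.933 to 1.11), 0.841 (0.776 to 0.912) and 0.828 (0.750 to 0.913), but cluster 0 held 87.1, 87.9, 86.7 and 80.3 CPM and cluster 5 held 58.9, 69.8, 54.8 and 64.0 CPM of Tlr13. Cluster 17 held 79.3, 80.9, 39.7 and 28.8 CPM.

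Myd88, the adaptor, was detected in every class. Monocyte-like cells held 131, 151, 112 and 119 CPM, neutrophil-like cells 105, 141, 97.2 and 81.2 CPM, dendritic-like cells 90.3, 101, 77 and 73.0 CPM and macrophage-like cells 75.8, 71.9, 65.3 and 58.0 CPM, each range overlapping the next. Cd209a-dendritic-like cells held 120, 125, 94.7 and 84.9 CPM. T-like cells held 22.0 to 28.9 CPM and NK-like cells 18.2 to 23.4 CPM, so Myd88 was not confined to the 5 classes. The ratios were 1.15 (1.06 to 1.26) in monocyte-like cells with the STING agonist and 0.851 (0.784 to 0.924) with the LTbR agonist, and 0.709 (0.606 to 0.827) in Cd209a-dendritic-like cells with the combination. Cluster 14 held 139, 209, 126 and 118 CPM of Myd88, a ratio of 1.5 (1.20 to 1.87) with the STING agonist.

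A ratio was counted where both libraries together held at least 50 UMIs of the gene in the class, and was called past a fold of 1.5 in either direction. For dendritic-like cells 3.54% of all genes counted lay at least 1.5-fold above and 4.4% below untreated with the STING agonist, 3.49% and 2.95% with the LTbR agonist, and 4.33% and 7.62% with the combination. Of the members, 0 of 8 lay past it with the STING agonist, Tlr8 having too few UMIs, 1 of 9 above (Tlr4) with the LTbR agonist, and 1 of 9 above (Tlr4) and 1 below (Tlr3) with the combination. The members' median log2 ratio with the combination was -0.31, against -0.04 over all genes.

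For macrophage-like cells the shares of all genes above and below were 2.43% and 3.12% with the STING agonist, 6.25% and 4.09% with the LTbR agonist and 6.8% and 4.66% with the combination. None of the 9 members lay past 1.5-fold with the STING agonist. With the LTbR agonist 2 of 9 lay below (Tlr1 and Tlr3), and with the combination 1 of 9 (Tlr3). The median log2 ratio of the members was -0.28 and -0.27 in these 2 libraries, against 0.00 and 0.02 over all genes. On the log2(CPM + 10) scale, which draws ratios of low levels toward 0, no member with at least 50 UMIs lay past 1.5-fold with the LTbR agonist in any class.

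Against untreated, monocyte-like and neutrophil-like cells held no member past 1.5-fold in any treated library. The shares of all genes above and below in monocyte-like cells were 2.53% and 2.59% with the STING agonist, 6.08% and 2.91% with the LTbR agonist and 8.89% and 5.81% with the combination, with all 9 members counted. In neutrophil-like cells they were 5.28% and 12.3%, 9.73% and 8.52%, and 11.8% and 11.8%, with only Tlr2, Tlr4, Tlr13 and Myd88 counted. The widest neutrophil-like ratio was that of Myd88 with the STING agonist, 1.34 (0.986 to 1.84). In the 67 neutrophil-like cells of the combination library C1qa, C1qb, C1qc and Lyz2, of which 2 were at 0, summed to 4388 CPM. The sums were 1261 CPM untreated, 1154 CPM with the STING agonist and 1984 CPM with the LTbR agonist. They were not split by gene, so macrophage transcripts cannot be told apart from Lyz2 of the neutrophil-like cells themselves. The part of macrophage transcripts in the values was not tested. Tlr7 in these 67 cells stood at 52.2 CPM on 9 UMIs in 4.48% of the cells.

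Against the STING monotherapy, the combination held less of several members. The shares of all genes above and below were 5% and 7.98% in dendritic-like, 5.89% and 3.54% in macrophage-like, 8.81% and 5.72% in monocyte-like and 16.7% and 12.7% in neutrophil-like cells. In dendritic-like cells Tlr4 lay above (2.15) and 2 of 8 members below, Tlr3 at 0.529 (0.324 to 0.852) and Tlr9 at 0.643 (0.482 to 0.856). In macrophage-like cells 2 of 9 lay below, Tlr2 at 0.656 (0.616 to 0.698) and Tlr3 at 0.621 (0.429 to 0.891). In monocyte-like cells 2 of 9 lay below, Tlr8 (0.597) and Tlr1 at 0.654 (0.459 to 0.925). In neutrophil-like cells 1 of 4 lay below, Myd88 at 0.577 (0.306 to 1.01) on 14 against 120 UMIs, an interval that includes 1.

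Against the LTbR monotherapy fewer members stood apart. The shares of all genes above and below were 2.64% and 5.03% in dendritic-like, 3.13% and 2.95% in macrophage-like, 3.17% and 3.72% in monocyte-like and 13.7% and 14.5% in neutrophil-like cells. Tlr3 lay below in dendritic-like cells (1 of 8) at 0.494 (0.318 to 0.747), Tlr4 lay below in monocyte-like cells (1 of 9, 0.580), and none lay past 1.5-fold in macrophage-like or neutrophil-like cells.

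**Figure D3:**
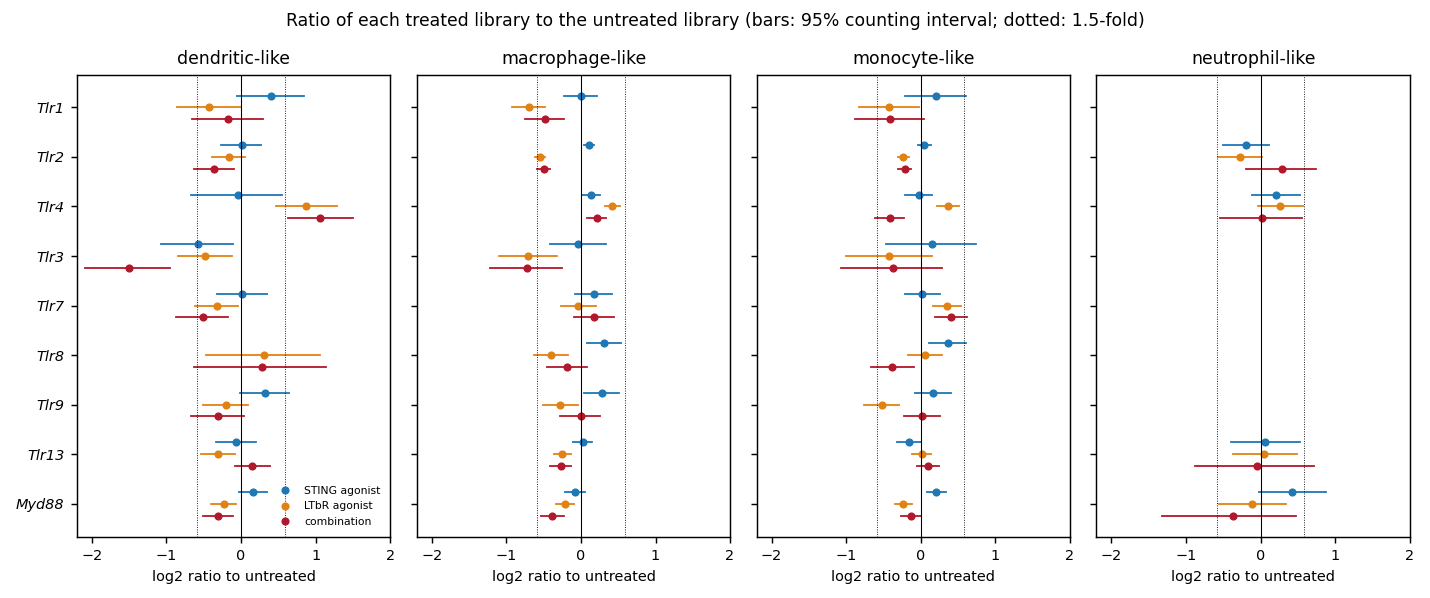
Log2 ratio of each treated library to the untreated one (x axis) for the 9 genes (y axis) in dendritic-, macrophage-, monocyte- and neutrophil-like cells (panels), shown where both libraries held at least 50 UMIs, with bars for exact 95% counting intervals. Tlr4 stands to the right of 0 in dendritic-like cells in both LTbR-treated libraries (1.83 and 2.09 times untreated), and Tlr2 stands to the left of 0 in macrophage-like cells in the same libraries.

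B-like cells were the class with the fewest cells without the LTbR agonist, and no member reached 50 UMIs in either monotherapy comparison. The class was a single cluster led by Cd79a, Igha and Jchain among others, so plasma cells were counted together with B cells. With the combination 5 members did, and 16.7% of all genes lay above and 8.49% below 1.5-fold. Tlr9 lay above at 2.78 (0.919 to 13.8) on 81 against 3 UMIs and Tlr7 below at 0.554 (0.323 to 1.01) on 86 against 16 UMIs, and both intervals include 1. The combination against the STING agonist had 2 of 5 members above and 1 below, each on at most 3 UMIs with the STING agonist, beside 25.1% and 28.2% of all genes. Against the LTbR agonist 1 of 6 lay above, Myd88 at 1.53 (0.946 to 2.57), beside 7.11% above and 4.77% below. With classes from marker scores the log2 ratio of Tlr9 moved from 1.48 to 0.17. Among genes measured well in each library the median log2 ratio was itself 0.11 in this comparison and 0.12 in neutrophil-like cells with the combination, so these ratios are to be read relative to that shift. Beside the receptors B cells are known to use, Tlr2 stood at 19.4, 12.6, 32.0 and 26.2 CPM. Transcripts of other cell types lay beside these values, with C1qa, C1qb, C1qc and Lyz2 summing to 324, 75.7, 523 and 686 CPM and the neutrophil genes S100a8, S100a9, Retnlg and Csf3r to 74.7, 4376, 163 and 26.2 CPM, where 1 of the 4 was at 0 in each library but that of the LTbR agonist. Of the B-like cells of the combination, 359 (67.7%) carried no UMI of macrophage (C1q genes, Lyz2), neutrophil (S100a8, S100a9) or T cell (Cd3 genes) transcripts. In these, Tlr2 stood at 7.63, Tlr4 at 3.05, Tlr13 at 0.508 and Myd88 at 15.3 CPM, against 50, 21.4, 23.4 and 45.5 CPM in the rest. The levels of Tlr7 (26.9 against 21.4 CPM), Tlr9 (24.9 against 20.8 CPM) and Tlr1 (17.3 CPM) in the cells without such UMIs were close to those of all B-like cells, at 24.5, 23.1 and 16.8 CPM. The 40 untreated cells of this kind held Tlr7 at 22.1 CPM on 5 of the 16 UMIs and no UMI of Tlr9, so that without the other 17 cells the untreated Tlr7 level lay below that of the combination (26.9 CPM) rather than above it. The 102 cells of this kind in the LTbR agonist library held Tlr7 at 20.9 and Tlr9 at 30.4 CPM, with Tlr2 at 3.80 CPM and no UMI of Tlr13. All B-like cells together held 0, 1, 3 and 2 UMIs of Tlr3 and 0, 0, 3 and 16 UMIs of Tlr8.

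The genes whose levels over the 19 sums of a class and library with enough cells were most like those of each member were found by Pearson's r of log2(CPM + 10) over 9430 genes. The sums share libraries and depth, and the values are a description. Tlr2 was closest to Igsf6, Vsir and Itgam (all 0.97), Tlr4 to Plk3 and Gm5150 (0.98) and Cd14 (0.97), and Tlr1 to Prmt2 (0.90), Selenom and Man2b2 (0.88). Among the genes close to Tlr3 were Htr7 (0.94) and C1qtnf6 (0.93). Tlr7 was closest to Sgk3 and Ankle2 (0.92) and Zup1 (0.86), and Tlr8 to Gm36161 and Gm21188 (0.97) and Lyz2 (0.96). Tlr9 was closest to Nono (0.94), Ly6e and Brd2 (0.93), and Tlr13 to Gpr35, Fyb and Alox5ap (0.98). Myd88 was closest to Parp9 (0.96), Trafd1 (0.95) and Ifih1 (0.94).

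The rest of the pathway was followed in 7 lists with 68 genes, for which the same shares of all genes are the background. The clusters of macrophage-like cells shifted with treatment, as given above, and the pathway genes of this class were not split by cluster. Of the 4 other Toll-like receptors, 4 were counted in dendritic-like cells, 3 in macrophage-like, 2 in monocyte-like and at most 1 (Tlr6) in neutrophil-like cells. Tlr5, the flagellin receptor, lay below 1.5-fold in macrophage-like cells with the LTbR agonist and the combination, at 18.8, 15.6, 10.5 and 11.2 CPM, and in monocyte-like cells with the combination at 0.571 (0.413 to 0.780). Tlr11 lay below in dendritic-like cells in every treated library, at 8.44, 4.55, 3.84 and 5.36 CPM, with a ratio of 0.455 (0.273 to 0.732) with the LTbR agonist. Tlr6 lay below in dendritic-like cells with the STING agonist on 10 against 50 UMIs, and Tlr12 above in macrophage-like cells with the combination at 1.61 (1.22 to 2.12).

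Among the 15 genes of co-receptors and trafficking, 13 or 14 were counted in dendritic-, macrophage- and monocyte-like cells and 7 or 8 in neutrophil-like cells. With the STING agonist none lay past 1.5-fold in the first 3 classes, and in neutrophil-like cells 1 lay above (Cd14) and 3 below (Hsp90b1, Lgmn and Ctss). With the LTbR agonist Cd36 lay above in macrophage-like and monocyte-like cells and Lgmn below in dendritic-like and monocyte-like cells. With the combination 2 lay above in each of the first 3 classes, which were Cd36 with Cd14 in dendritic-like, with Ctsk in macrophage-like and with Slc15a4 in monocyte-like cells, and Lgmn lay below in the latter 2 classes. Cd36, a scavenger receptor that assists Tlr2 with Tlr6, stood at 7.67, 9.78, 13.5 and 24.8 CPM in macrophage-like cells, a ratio of 3.23 (2.58 to 4.05) with the combination. In monocyte-like cells Cd36 stood at 17.6, 12.7, 35.1 and 50.8 CPM, and it is also among the leading genes of cluster 15. Cd14, which hands lipopolysaccharide to Tlr4, stood at 174, 201, 228 and 324 CPM in dendritic-like cells, a ratio of 1.86 (1.73 to 2.00) with the combination, beside the macrophage transcripts given above. Lgmn, a protease that processes endosomal receptors, stood at 489, 402, 308 and 221 CPM in monocyte-like cells, a ratio of 0.451 (0.424 to 0.480) with the combination. Ctsk rested on 33 against 29 UMIs, and Ly96, the partner of Tlr4, lay within 1.5-fold in dendritic-, macrophage- and monocyte-like cells in every treated library.

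Of the 5 adaptors 4 were counted in dendritic-, macrophage- and monocyte-like cells, and the 1 or 2 counted in neutrophil-like cells lay within 1.5-fold. Ticam2, which links Tlr4 to the Ticam1 branch, stood at 5.40, 6.04, 8.81 and 13.1 CPM in macrophage-like cells, a ratio of 1.63 (1.24 to 2.15) with the LTbR agonist and 2.43 (1.82 to 3.24) with the combination. It also lay above with the combination in dendritic-like cells at 1.93 (1.25 to 2.98) and in monocyte-like cells at 1.52 (1.14 to 2.04). Pik3ap1 lay below with the combination in dendritic-like and macrophage-like cells, at 0.619 (0.566 to 0.675) and 0.625 (0.590 to 0.661). The 15 kinases and ubiquitin ligases were all counted in dendritic-, macrophage- and monocyte-like cells, where 1 ratio lay past 1.5-fold, that of Ikbke in macrophage-like cells with the combination at 0.599 (0.531 to 0.674). In neutrophil-like cells 3 of 10 lay below with the STING agonist, 1 of 11 with the LTbR agonist, and 1 of 6 on each side with the combination. Ikbke, a kinase that activates interferon regulatory factors, was past 2-fold below untreated there in both monotherapy libraries, at 61.0, 28.1, 20.4 and 11.6 CPM on 39, 24, 25 and 2 UMIs.

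The 6 transcription factors were all counted in dendritic-, macrophage- and monocyte-like cells. Irf7, which turns endosomal receptor signals into interferon, stood at 327, 366, 242 and 197 CPM in dendritic-like cells, a ratio of 0.602 (0.555 to 0.652) with the combination. Plasmacytoid-dendritic-like cells, a smaller share of that library's class, held an Irf7 ratio of 1.15 (0.95 to 1.38), against 0.589 (0.535 to 0.649) in Cd209a-dendritic-like, 0.420 (0.313 to 0.555) in mature-dendritic-like and 0.139 (0.0662 to 0.259) in cDC1-like cells, the last on 10 against 392 UMIs. In neutrophil-like cells of the combination Irf7 stood at 1.77 times untreated (1.33 to 2.34). Rel lay above in monocyte-like cells with the combination at 1.74 (1.61 to 1.87), and Nfkb1 lay below in neutrophil-like cells of the same library. Of the 8 inhibitors, Socs1, a suppressor of cytokine signaling, lay above 1.5-fold in each of these 4 classes with the STING agonist and with the combination, and within it with the LTbR agonist. Socs1 stood at 60.1, 116, 52.0 and 98.9 CPM in macrophage-like cells, 150, 256, 114 and 256 CPM in monocyte-like cells, 70.6, 125, 81.3 and 114 CPM in dendritic-like cells and 100, 267, 102 and 180 CPM in neutrophil-like cells. Outside B-like cells, the other inhibitors past 1.5-fold were in neutrophil-like cells, with Irak3 and Tollip below with the LTbR agonist and Trafd1 above with the combination.

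Of 15 target genes of Toll-like receptor signaling, 6 of 10 counted lay below 1.5-fold in monocyte-like cells with the combination (Il6, Cxcl2, Ccl3, Ccl4, Ccl5 and Ptgs2) and none above. Their median log2 ratio was -0.92, against 0.09 over all genes. Il6, a cytokine of acute inflammation, stood at 33.6, 26.7, 33.8 and 12.2 CPM, a ratio of 0.364 (0.278 to 0.471), and Cxcl2, a neutrophil chemokine, at 634, 610, 644 and 265 CPM, a ratio of 0.418 (0.395 to 0.442). The make-up of the class moved beside this, with cluster 15 at 6.14% of untreated monocyte-like cells and 30.3% of those of the combination, and cluster 3 at 58.1% and 42.8%. Within clusters the counts below were 5 of 10 in cluster 3, 4 of 10 in cluster 13, 4 of 7 in cluster 14 and 3 of 6 in cluster 15, and Cxcl2 was among them in each, at 0.659 (0.595 to 0.729), 0.664 (0.618 to 0.714), 0.320 (0.227 to 0.444) and 0.228 (0.173 to 0.300). Il6 stood at 0.542 times untreated (0.346 to 0.823) in cluster 3 and at 0.392 (0.250 to 0.591) in cluster 13. Ccl5 was 1.03 (0.985 to 1.08) in cluster 3 and above untreated in cluster 15 at 2.05 (1.43 to 3.02). It was below untreated in cluster 13 at 0.431 (0.403 to 0.459) and in cluster 14 at 0.0641 (0.0170 to 0.171), the latter on 4 against 74 UMIs. Cxcl10 lay within 1.5-fold over the class, and above it in cluster 3 at 1.68 (1.63 to 1.73) and in cluster 14 at 1.62 (1.49 to 1.76). No target lay above 1.5-fold in cluster 13. With the STING agonist 1 of 10 lay above (Tnf) and none below in these cells, and with the LTbR agonist 1 of 10 below (Ccl5, 0.321, 0.309 to 0.332).

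Macrophage-like cells differed for Il6, which stood at 15.9, 14.6, 40.1 and 30.5 CPM there, a ratio of 2.52 (2.18 to 2.92) with the LTbR agonist and 1.92 (1.61 to 2.28) with the combination. The make-up of macrophage-like cells moved beside this too, and their target genes were not split by cluster. Their Ccl5, a chemokine for T cells, stood at 1804, 1536, 326 and 789 CPM, and with Il6 it was the only target of 11 past 1.5-fold with the LTbR agonist. With the combination 2 of 12 lay above (Il6 and Il12b) and 2 below (Ccl3 and Ccl5), and with the STING agonist 1 of 11 below (Il10, on 7 against 45 UMIs). In dendritic-like cells 3 of 12 targets lay above with the STING agonist (Il12a, Cxcl2 and Cxcl10) and 1 below (Nos2), 2 above and 4 below with the LTbR agonist, and 3 below with the combination. Cxcl2 in dendritic-like cells stood at 87.5, 161, 188 and 92.9 CPM. In neutrophil-like cells 3 of 8 lay above with the STING agonist (Tnf, Ccl3 and Ccl4) and 1 below (Ccl5), 3 of 9 on each side with the LTbR agonist, and 1 of 8 on each side with the combination. Ccl5 lay below in each treated library there, at 781, 437, 363 and 203 CPM. The T cell genes Cd3e, Cd3d, Cd3g and Trac summed to 268, 237, 154 and 40.6 CPM in these neutrophil-like cells. The part of T cell transcripts in the Ccl5 values was not tested. Ccl4, a chemokine of neutrophils and macrophages, stood highest against untreated with the STING agonist, at 2.60 times (2.42 to 2.78), and Nos2, the inducible nitric oxide synthase, with the LTbR agonist at 5.87 times (2.86 to 14) on 90 against 8 UMIs.

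B-like cells were counted with 57 untreated and 15 STING agonist cells, so their ratios rest on few UMIs. With the STING agonist 25.1% of all genes lay above and 13.2% below, and with the LTbR agonist 11% and 7.22%. None of the other receptors was counted. Of the co-receptors and trafficking genes 1 of 8 lay above and 3 below with the STING agonist, 1 of 10 on each side with the LTbR agonist, and 1 of 13 above and 2 below with the combination. Hsp90b1, a chaperone of the receptors, stood at 0.418 times untreated (0.380 to 0.460) with the combination and 0.449 (0.331 to 0.598) with the STING agonist. Plasma cells were counted in this class, and the part of a changed plasma cell share in these ratios was not tested. Cd180, a receptor-like protein of B cells, stood at 2.94 times (1.59 to 5.33) with the STING agonist, where Cd14 held 1 against 70 UMIs, and 5430427O19Rik stood at 2.65 times (0.872 to 13.1) with the combination. Of the adaptors only Pik3ap1 was counted, above with the STING agonist, and of the kinases and ubiquitin ligases 1 of 3 lay below with the STING agonist (Irak2), 1 of 11 above with the LTbR agonist (Chuk) and 0 of 13 past 1.5-fold with the combination.

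Of the transcription factors in B-like cells none of 2 lay past 1.5-fold with the STING agonist, 1 of 5 above with the LTbR agonist (Irf7) and 2 of 6 above with the combination (Irf3 and Irf7), where Irf3 rested on 105 against 1 UMIs. Of the inhibitors 2 of 3 lay above with the STING agonist (Tnfaip3 and Nfkbia), 0 of 6 with the LTbR agonist and 2 of 7 above with the combination (Tollip and Socs1). Of the target genes 1 of 4 lay above and 2 below with the STING agonist, where Cxcl2 stood at 2.14 times (1.43 to 3.17), Ccl5 held 2 against 101 UMIs and Cxcl10 0 against 154. With the LTbR agonist 3 of 7 lay above and 2 below, with Ccl3 at 2.67 (1.21 to 6.92), Ccl4 at 2.28 (1.24 to 4.58) and Cxcl10 at 0.175 (0.133 to 0.230). With the combination 3 of 9 lay above and 4 below, with Ccl4 at 5.16 (2.93 to 10.1), Cxcl10 at 0.295 (0.245 to 0.357), Cxcl2 at 0.355 (0.277 to 0.459) and Nos2 at 0.408 (0.256 to 0.676). The transcripts of other cell types given above lie beside these values too, and their part in them was not tested.

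**Figure D4:**
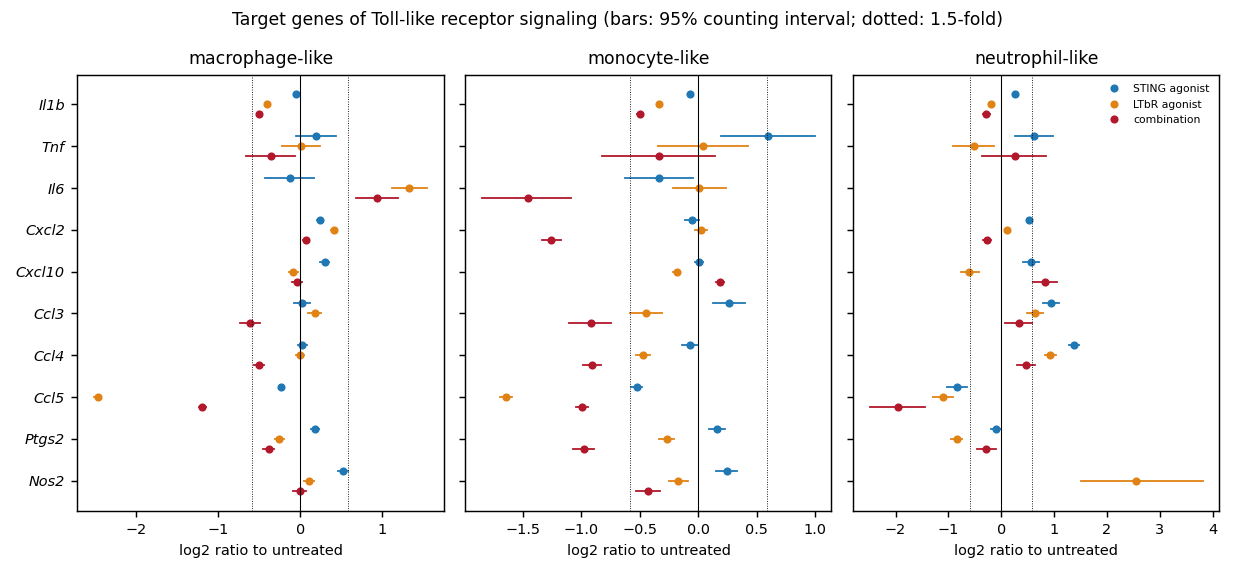
Log2 ratio of each treated library to the untreated one (x axis) for target genes of Toll-like receptor signaling (y axis) in macrophage-, monocyte- and neutrophil-like cells (panels; dotted lines mark 1.5-fold), shown where both libraries held at least 50 UMIs, with bars for exact 95% counting intervals. Among the combination's values in monocyte-like cells Il6 and Cxcl2 stand furthest to the left (0.364 and 0.418 times untreated), while Il6 stands to the right in macrophage-like cells of both LTbR-treated libraries.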

How the data were processed

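Live CD45-positive cells of pooled tumors were captured with the 10x Genomics 5′ chemistry, and the authors counted UMIs per gene and barcode with Cell Ranger 7.1.0 against mm10, as raw counts in the deposited matrix. Whether intron reads were counted is not given in the sources used here. Libraries were told apart by the barcode suffix that the labels assign to each sample. The study's limits (300 to 5000 genes, at most 6% mitochondrial UMIs) were applied here. Counts per cell were scaled to 10000 and log-transformed, and 2000 variable genes, without 633 V(D)J genes and the 77 members and pathway genes, gave 30 principal components, a graph of 20 neighbors and Leiden clusters at resolution 1, without batch correction (scanpy 1.11.5, leidenalg 0.10.2, Python 3.11.15, scipy 1.17.1). Clusters were named from fixed markers, needing at least 3 raised markers. Doublets were kept, and Scrublet scores above 0.2 were removed in an alternative.

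UMIs were summed per library and class and scaled to CPM. Intervals are exact Poisson for levels, Clopper-Pearson for shares and conditional binomial for ratios, all at 95% and covering counting error only. The computation of the ratio intervals was checked on simulated Poisson counts. These held no variation between cells or tumors, so the check does not show how well the intervals suit these data. Members, gene lists and markers were chosen with earlier results of these data known. Of each pathway list the counts past 1.5-fold against untreated are given, and genes past 2-fold were named, at most 4 a list. The others named were chosen after their values were seen. For each member, the 3 genes with the highest correlation among those with at least 500 UMIs are named, except 1 that is not reported here.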

Additional observations from a re-analysis of the deposited data

Results flagged for a closer look

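Tlr4 lay on opposite sides of the untreated level in different cell classes of the combination library. Its log2 ratio was 1.06 in dendritic-like cells and 0.21 in macrophage-like cells, against -0.42 in monocyte-like cells. The macrophage-like value turned to -0.07 with classes by marker score and -0.04 at Leiden resolution 2. Tlr7 did so as well, with a log2 ratio of 0.41 in monocyte-like cells against -0.52 in dendritic-like cells in the combination library. With each cluster of a class weighted alike in both libraries these became 0.14 and -0.07. With the LTbR agonist alone the Tlr7 log2 ratios were 0.35 in monocyte-like cells and -0.32 in dendritic-like cells. In each case the counting interval of either ratio lies on 1 side of 0. The differences between classes were not tested, since each rests on the same 2 libraries.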

How the results depend on the processing

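Of 97 ratios to untreated with at least 50 UMIs, 8 lay past 1.5-fold, and all 8 kept their sign under each of 9 alternatives, while 2 stayed past 1.5-fold under each, Tlr4 (log2 ratios of 0.64 to 1.29) and Tlr3 (-1.76 to -0.86) in dendritic-like cells with the combination. The alternative with common cluster weights leaves out clusters with fewer than 20 cells in either library. For the combination it left out the cDC1-like cells (60 untreated and 10 with the combination), where Tlr3 was highest. Its Tlr3 value therefore does not cover their smaller share of the class. Each count below is of pairs of a member and a cell class past 1.5-fold, over all classes together. It is not a number of members within a class. The counts under alternatives that moved them by more than 1.5 times follow, and the shares of all genes under these alternatives are not given here. With the STING agonist the count above was 0 and became 1 with classes by marker score and 2 at Leiden resolution 2, and the count below was 0 and became 1 with median-of-ratios size factors, without cells of doublet score above 0.2, without cells of mixed markers, with classes by marker score and at Leiden resolution 2. With the LTbR agonist the count above was 1 and became 2 with the mean of CPM per cell, with cells up to 20% mitochondrial UMIs or with cluster weights common to both libraries, 0 on the log2(CPM + 10) scale and 4 with a minimum of 20 UMIs, and the count below was 2 and became 0 and 4 under the latter 2. With the combination the count above was 2 and became 1 with classes by marker score and 4 at Leiden resolution 2, and the count below was 3 and became 5 with the mean of CPM per cell and 8 with classes by marker score. The other alternatives moved each count by at most 1.5 times. Within plasmacytoid-dendritic-like cells the log2 ratio of Irf7 with the combination turned from -0.73 to 0.20. The cause was not tested, except that a pseudocount draws low ratios toward 0 and a lower minimum counts more ratios. Leaving out Cd209a-dendritic-like cells with a C1q UMI, B-like cells with UMIs of other types, and looking at single clusters were chosen after seeing the data. No paired analysis was possible because each group had 1 library and no result came from a test, and no replicate could be left out. Depth limits B-like cells most, where 57 and 15 cells stood for the untreated and STING agonist groups.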
